A study of Mus musculus with 9 samples.

Results

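Keratin, progenitor and epithelial plasticity markers were followed in TAMH cells given a bipyridylium herbicide. The 10 genes were Krt23, Krt7, Krt8, Krt18, Krt19, Sox9, Epcam, Spp1, Snai2 and Cdh1, and 9 of them had an array feature of their own among the 22180 genes tested; Spp1, which encodes the secreted matrix protein osteopontin, was not analysed here. Each gene was read from the feature carrying its symbol alone, and where it had several (Krt18 and Cdh1) the feature was chosen by its higher mean log2 level over the 9 arrays. The 10 genes themselves were chosen on the basis of their function and of earlier results from these data, among them the differences of Krt23, Sox9 and Krt7 between treated and control cells. The tests below therefore place these genes in the fit of all genes and are no independent evidence for the choice.

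TAMH is a mouse hepatocyte line established from a transgenic animal that overexpresses transforming growth factor alpha, so all groups share that background, and 1 line stands for the cell type. All dishes were kept in a medium supplemented with dexamethasone, nicotinamide, gentamicin, insulin, transferrin and selenium. The 3 groups were cells given diquat (DQ) at 18 µM, cells given paraquat (PQ) at 126 µM and control cells (CON) in medium alone, all for 9 h, with 3 arrays each. Both compounds accept electrons from cellular reductases and pass them to oxygen, which yields superoxide. Nothing in the labels tells whether the 3 dishes of a treatment were grown independently, so the p-values reflect scatter between dishes that may be only technical.

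Keratins are the intermediate filament proteins of epithelial cells, and each filament is built from a type I and a type II chain. Adult hepatocytes are known for the pair of type II keratin 8 and type I keratin 18, whereas keratins 7 and 19 mark bile duct cells, and keratin 23 is known from injured liver and ductular cells. SOX9 is a transcription factor of bile duct and progenitor cells, EPCAM an adhesion molecule of the same cells, and E-cadherin, the product of Cdh1, holds epithelial cells together. Slug, the product of Snai2, is a zinc finger repressor that binds E-box sequences, including those of the Cdh1 promoter.

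Values are log2 expression levels, so a difference of 1 is a 2-fold change, and levels of different genes are not comparable on arrays. The 9 measured of 10 listed hepatocyte markers averaged 9.81 to 9.85 on the DQ arrays, 9.75 to 9.93 on the PQ arrays and 10.02 to 10.09 on the control arrays, and by its mean over all 9 arrays each lay above the median of all genes, which describes these probes and is no call of presence. Of these, Ttr differed by -0.34 with DQ and -0.32 with PQ (limma adjusted p = 0.00121 and 0.00228). Cps1 differed by -0.75 and -0.80 (limma adjusted p = 0.0035 and 0.00304). Hnf4a differed by -0.19 with DQ, right at the threshold (limma adjusted p = 0.04999), and Fgb by -0.52 with PQ (limma adjusted p = 0.0276). The other hepatocyte markers did not pass with either compound, and Alb stood at 12.73 in every group. Endothelial markers (5 genes, averages of 5.67 to 5.77 with DQ, 5.78 to 5.85 with PQ and 5.78 to 5.85 in controls) lay below that median by the same measure. Averages of 6 leukocyte and macrophage markers lay at 6.09 to 6.21 with DQ, 6.19 to 6.26 with PQ and 6.10 to 6.17 in controls, and those of 6 stellate and fibroblast markers at 6.66 to 6.81, 6.72 to 6.79 and 6.75 to 6.84. By its mean over all 9 arrays, a marker lay above the median of all genes in 2 of 6 cases in each of these lists, among them Cd68, Col1a1 (8.97 with DQ, 9.03 with PQ and 9.18 in controls) and Acta2 (7.33 with DQ, 7.36 with PQ and 7.44 in controls). Of these markers of other cell types Cd68 rose with DQ, averaging 8.02 with DQ and 7.62 in controls (limma adjusted p = 0.0343), and the others did not pass with either compound. The part of these markers in the results below was not tested. DQ replicate 3 lay farthest from its group mates, at a root-mean-square distance of 0.134 against 0.0714 to 0.115 for the other 8 arrays. Calls of the 9 markers and of the named list genes that are lost without it are named below. The calls of the cell type markers above were not examined without it.

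The 250 bases upstream of the start of 4 keratin genes, which the array does not measure, are shown to compare the promoters of keratins with unlike values, as RefSeq gives them for GRCm38.p6: Krt23, which was higher with both compounds, Krt7, which was lower with DQ, and the hepatocyte pair Krt8 and Krt18. Capitals mark matches to any of 7 motifs searched on both strands: TGANTCA (AP-1), TGATGNAA (ATF4-type), TGACNNNGC (antioxidant response), TATAAA (the TATA box), the CCAAT box by its letters, the letters CACCTG (an E-box of the kind slug binds) and ACAAAG (SOX). No 2 matches overlapped in these windows. The regions are chr11:99493121-99493370 on the minus strand for Krt23, chr15:101412153-101412402 on the plus strand for Krt7, chr15:102004343-102004592 on the minus strand for Krt8 and chr15:102027966-102028215 on the plus strand for Krt18.
Krt23: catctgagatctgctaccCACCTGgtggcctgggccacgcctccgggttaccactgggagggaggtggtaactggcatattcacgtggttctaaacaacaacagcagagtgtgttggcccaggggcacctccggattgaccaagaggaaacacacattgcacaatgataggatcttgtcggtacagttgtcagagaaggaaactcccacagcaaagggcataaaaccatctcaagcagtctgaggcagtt
Krt7: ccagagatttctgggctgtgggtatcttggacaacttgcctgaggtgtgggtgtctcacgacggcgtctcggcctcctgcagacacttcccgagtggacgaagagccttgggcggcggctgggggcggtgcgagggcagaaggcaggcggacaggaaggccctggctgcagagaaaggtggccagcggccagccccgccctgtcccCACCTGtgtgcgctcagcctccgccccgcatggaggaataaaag
Krt8: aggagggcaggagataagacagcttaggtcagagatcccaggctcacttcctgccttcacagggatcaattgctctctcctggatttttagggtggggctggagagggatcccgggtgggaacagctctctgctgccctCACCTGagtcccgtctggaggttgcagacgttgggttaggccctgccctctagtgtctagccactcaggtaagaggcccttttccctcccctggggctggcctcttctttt
Krt18: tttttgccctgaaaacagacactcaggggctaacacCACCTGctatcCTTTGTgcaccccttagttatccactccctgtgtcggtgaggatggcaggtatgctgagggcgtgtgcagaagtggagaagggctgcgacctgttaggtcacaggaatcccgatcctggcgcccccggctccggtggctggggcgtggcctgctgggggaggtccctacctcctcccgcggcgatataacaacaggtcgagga

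CACCTG occurred in all 4 windows, in that of Epcam and in 1 of 2 windows of Spp1, which completes the 6 genes of the list that the promoter table held, against 17.2% of all 32851 upstream windows of that length in the table. It lay 232 to 227 bases upstream of the start in Krt23, 44 to 39 in Krt7, 111 to 106 in Krt8 and 214 to 209 in Krt18. The Krt18 window also held ACAAAG on the opposite strand (203 to 198 bases upstream; 16.5% of all windows hold it). No match to the AP-1, ATF4-type or antioxidant response letters, which 6.75%, 3.45% and 10.2% of all windows hold, lay in the 4 windows. The motifs were chosen with results known, and a match describes letters and not binding. Sox9, Snai2, Krt19 and Cdh1 had no window in the promoter table, so no motif was sought upstream of them. The matches were not tested against the share of all windows.

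Among the 9 measured markers, Krt23, Sox9 and Snai2 rose with DQ and Krt7 and Krt19 fell, while Krt8, Krt18, Epcam and Cdh1 did not pass the test. That is 3 of 9 higher, beside 4.13% of all genes tested (917 higher), and 2 of 9 lower, beside 2.89% (641 lower), at an adjusted p under 0.05 in limma over all 22180 genes; in either direction 5 of 9 passed, beside 7.02%. The DQ arrays did not overlap the control arrays in 6 of 9 genes (beside 21.3% of all genes), 4 of them higher (beside 10.1%) and 2 lower (beside 11.2%). After each array was centred on its median, 78.2% of all DQ calls were higher, against 58.9% as deposited and 49.9% after quantile normalization. With PQ, Krt23, Sox9 and Snai2 rose again (3 of 9, beside 2.33% of all genes tested) and none of the 9 fell (beside 2.24%), so that 3 of 9 passed in all, beside 4.57%. The PQ arrays did not overlap the control arrays in 6 of 9 genes (beside 19.4% of all genes), 4 higher (beside 9.05%) and 2 lower (beside 10.4%). An unadjusted p under 0.05 was met by 6 of 9 with DQ, beside 21.6%, and by 4 of 9 with PQ, beside 15%. Both compounds were set against the same control arrays. The median difference of the 9 genes was 0.04 with DQ and 0.03 with PQ on the log2 scale, beside -0.02 and -0.003 over all genes.

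Krt23, a type I keratin, moved most. Its log2 level was 7.31, 7.24 and 7.25 on the DQ arrays and 7.52, 7.43 and 7.52 on the PQ arrays, against 6.40, 6.51 and 6.36 on the control arrays. Every treated array lay above every control array, and every PQ array above every DQ array. Krt23 was 1.79-fold higher with DQ (log2 difference 0.84 ± 0.05 (SE); limma adjusted p = 6.72e-06) and 2.09-fold higher with PQ (1.07 ± 0.05 (SE); limma adjusted p = 1.74e-06). Among all genes it stood at place 31 of the rises with DQ and at place 17 with PQ.

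The bile duct keratins Krt7 and Krt19 were lower on every treated array than on any control array. Krt7, a type II chain, read 8.71, 8.65 and 8.64 with DQ and 8.81, 8.85 and 8.88 with PQ, against 8.89, 9.03 and 8.96 in controls. It fell 1.23-fold with DQ (log2 difference -0.29 ± 0.04 (SE); limma adjusted p = 0.00328), and with PQ the difference of -0.11 ± 0.04 (SE) did not pass (limma adjusted p = 0.233). The PQ arrays thus lay between those of the other groups. Krt19, a type I chain, read 8.21, 8.09 and 8.15 with DQ and 8.26, 8.23 and 8.26 with PQ, against 8.32, 8.32 and 8.28 in controls. Its DQ difference of -0.16 ± 0.04 (SE) was close to the threshold (limma adjusted p = 0.0383), and that with PQ, -0.06 ± 0.04 (SE), did not pass (limma adjusted p = 0.603). The Krt19 call was lost in 12 of 18 alternatives, among them the fits without any single array other than DQ replicate 1, with adjusted p-values up to 0.186 in limma.

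The hepatocyte keratins Krt8 and Krt18 changed little by the features used. Both lay near the top of all genes by mean level, at percentiles 99.8 and 99.43. Whether array signal at that level understates differences was not tested. Krt8, the type II partner, read 12.01, 11.94 and 12.02 with DQ and 11.96, 11.98 and 12.01 with PQ, against 11.97, 11.94 and 11.94 in controls. The groups overlapped, and the 95% intervals of the log2 difference were -0.04 to 0.12 with DQ and -0.05 to 0.11 with PQ. Krt18, the type I partner, read 11.63, 11.64 and 11.65 with DQ and 11.61, 11.64 and 11.59 with PQ, against 11.54, 11.57 and 11.52 in controls. Each treated array was above each control array, by a mean of 0.10 ± 0.03 with DQ and 0.07 ± 0.03 with PQ on the log2 scale (SE), without passing (limma adjusted p = 0.121 and 0.36). With an intensity trend and a robust prior, the DQ difference passed (limma adjusted p = 0.0339).

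Krt18 and Cdh1 each had a further feature that the rule left out. The further Krt18 feature, whose level was lower, read 9.01, 8.90 and 9.28 with DQ and 9.43, 9.20 and 9.13 with PQ, against 8.88, 8.68 and 8.69 in controls. Fitted among all 34472 features, it was 1.42-fold higher with PQ (log2 difference 0.50 ± 0.11 (SE); limma adjusted p = 0.0393), and with DQ the difference of 0.31 ± 0.11 (SE) did not pass (limma adjusted p = 0.165). With the mean of both features in place of the brighter one, the value for Krt18 was higher by 0.29 with PQ (limma adjusted p = 0.0226) and by 0.21 with DQ (0.0733). The further feature carries the Krt18 symbol, but whether it reads the Krt18 transcript was not tested, so neither value is a measure of Krt18 by itself. The further Cdh1 feature read between 5.73 and 5.84 on the treated arrays and between 5.72 and 5.81 in controls, which is below the median of every array (5.95 to 6.04).

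**Figure D1:**
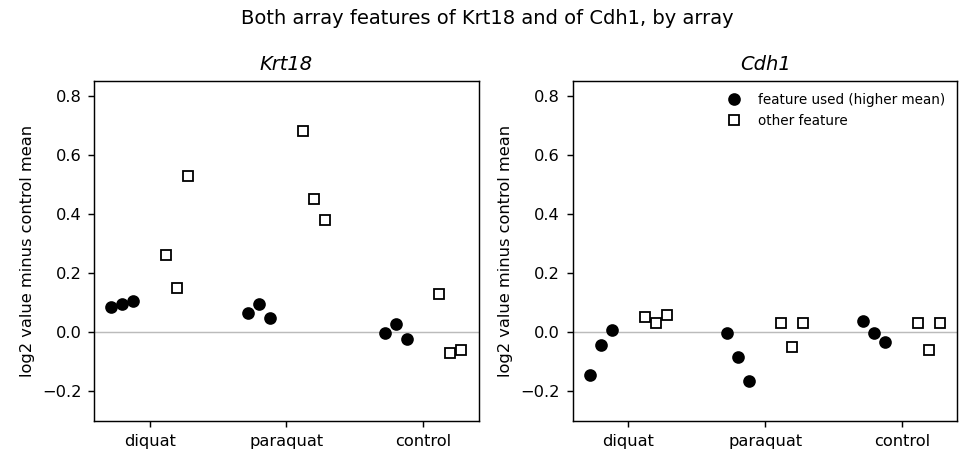
Log2 values minus the feature's control mean (vertical axis) on each array for the feature used (filled circles) and the other feature (open squares) of Krt18 and Cdh1. The PQ arrays of the other Krt18 feature lay above its control arrays, with a mean difference of 0.50, against 0.07 for the feature used.

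The transcription factor gene Sox9 read 10.63, 10.71 and 10.60 with DQ and 10.61, 10.62 and 10.53 with PQ, against 10.20, 10.24 and 10.16 in controls. Treated arrays of both kinds overlapped each other and lay above all controls. It rose 1.36-fold with DQ (log2 difference 0.45 ± 0.04 (SE); limma adjusted p = 0.000247) and 1.31-fold with PQ (0.39 ± 0.04 (SE); limma adjusted p = 0.000774).

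Snai2, the slug gene, read 10.57, 10.59 and 10.57 with DQ and 10.78, 10.98 and 10.93 with PQ, against 10.19, 10.23 and 10.24 in controls. The 3 groups did not overlap, with PQ highest. It was 1.28-fold higher with DQ (log2 difference 0.36 ± 0.05 (SE); limma adjusted p = 0.00211) and 1.60-fold higher with PQ (0.68 ± 0.05 (SE); limma adjusted p = 4.5e-05). Cdh1, whose promoter slug is known to repress, read 10.15, 10.25 and 10.30 with DQ and 10.29, 10.21 and 10.13 with PQ, against 10.33, 10.29 and 10.26 in controls. The groups overlapped, and the 95% intervals of the log2 difference ran from -0.18 to 0.06 with DQ and from -0.20 to 0.03 with PQ. Epcam read 7.59, 7.70 and 7.74 with DQ and 7.66, 7.68 and 7.66 with PQ, against 7.66 on all 3 control arrays, with intervals of -0.08 to 0.11 and -0.09 to 0.10.

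**Figure D2:**
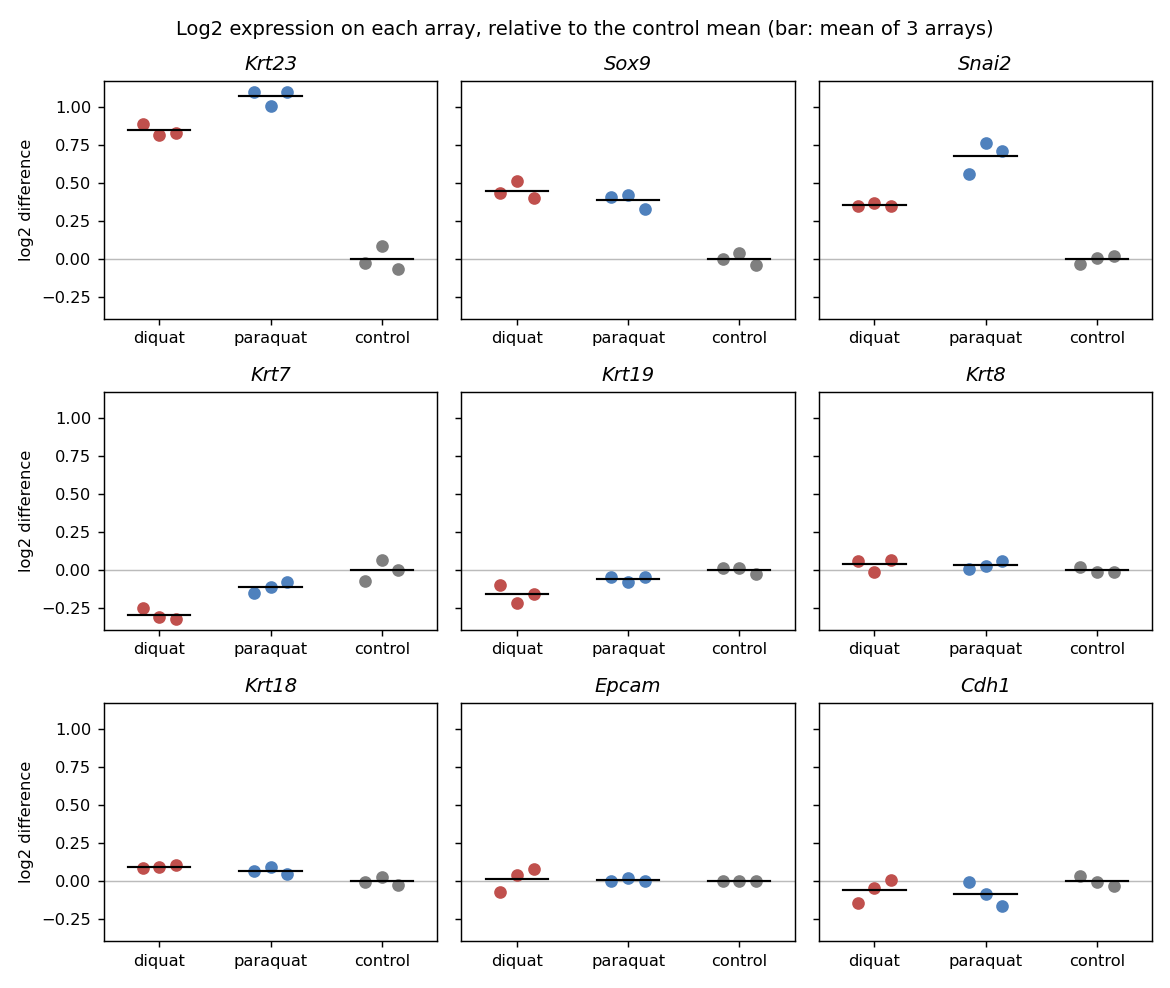
Log2 value on each array minus the gene's control mean (vertical axis) for the 9 genes in DQ, PQ and control cells, with the mean of 3 arrays as a bar. Krt23, Sox9, Snai2 and, without passing, Krt18 lay above the controls on all 6 treated arrays. Krt7 and Krt19 lay below them, and Krt8, Epcam and Cdh1 overlapped them.

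The compounds were compared with each other at the doses used, which differ, so the values describe 2 treatments and not 2 compounds at equal dose. None of the 9 genes passed between PQ and DQ, and 0 of all 22180 genes did in limma (0% of genes tested; 2371, or 10.7%, had an unadjusted p under 0.05, 4 of them among the 9). The difference was 0.32 for Snai2 (95% interval 0.21 to 0.43; limma adjusted p = 0.211), 0.22 for Krt23 (0.12 to 0.33; limma adjusted p = 0.309), 0.18 for Krt7 (0.08 to 0.28; limma adjusted p = 0.338) and 0.10 for Krt19 (0.01 to 0.19; limma adjusted p = 0.434), PQ minus DQ on the log2 scale. In these 4 genes all PQ arrays lay above all DQ arrays, beside 5.36% of all genes, and in none of the 9 did all lie below, beside 5.18%. Snai2 had place 8 among all genes ordered from the highest difference, and it passed when PQ replicate 1, its lowest PQ array, was left out (0.38; limma adjusted p = 0.0368). For Sox9, Krt8, Krt18, Epcam and Cdh1 the differences were -0.06, -0.01, -0.03, -0.01 and -0.02, each with an interval that held 0, and these intervals lay between -0.16 and 0.09.

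**Figure D3:**
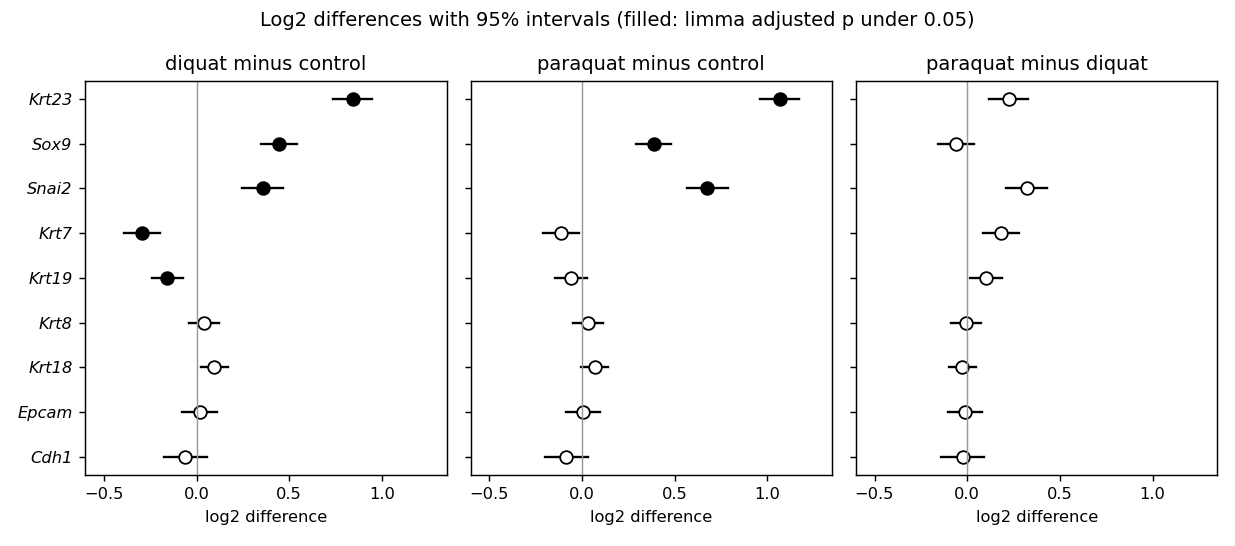
Log2 differences (horizontal axis) with 95% intervals from limma for the 9 genes: DQ minus control, PQ minus control and PQ minus DQ. Filled points passed an adjusted p under 0.05: 5 with DQ, 3 with PQ and 0 between the compounds.

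The genes whose profile over the 9 arrays lay closest to 3 of the markers were found by the root-mean-square distance between log2 values, each centred on the gene's own mean. Closest to Krt23 were Ddit3 (0.0604), Trib3 (0.0658) and Slc1a4 (0.0880), whose differences were 0.80, 0.82 and 0.72 with DQ and 1.09, 1.09 and 0.89 with PQ. Closest to Sox9 were Tnfrsf22 (0.0416), Oser1 (0.0425) and Ier5 (0.0481), with 0.41, 0.46 and 0.39 with DQ and 0.36, 0.36 and 0.36 with PQ. Closest to Krt7 were Evx2 (0.0361), Slc26a2 (0.0445) and Rab38 (0.04605), with -0.25, -0.27 and -0.28 with DQ and -0.04, -0.17 and -0.17 with PQ. The 9 arrays share 3 treatments, so likeness here is mostly likeness of the 3 group means.

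The remaining keratins gave 1 call, a fall with DQ. Of 24 other type I keratins measured, 0 rose and 1 fell with DQ (beside 4.13% and 2.89% of all genes) and 0 passed with PQ (beside 2.33% higher and 2.24% lower), and their log2 differences ran from -0.25 to 0.10 with DQ and from -0.14 to 0.10 with PQ. The fall was in Krt9, a keratin of palm and sole skin, which averaged 6.50 ± 0.11 with DQ against 6.75 ± 0.08 in controls (SD, n = 3 each; limma adjusted p = 0.0393); its call was kept in 10 of 18 alternatives and lost without DQ replicate 1 or 3, PQ replicate 3 or any 1 control array. Of 22 other type II keratins, 0 passed with either compound (1 rose with DQ after quantile normalization), with differences of -0.19 to 0.14 with DQ and -0.12 to 0.16 with PQ, and Krt90 stood first by size at -0.19 with DQ (limma adjusted p = 0.272). Most keratins are skin and hair chains, and the medians of these type I and type II genes were -0.045 and -0.035 with DQ and -0.013 and -0.028 with PQ.

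Among 11 measured genes for proteins that bind keratins or collect with them in hepatocyte inclusion bodies, 1 rose and 3 fell with DQ (2 fell after centring), and 1 rose and 1 fell with PQ (2 fell after quantile normalization). Over all genes 4.13% rose and 2.89% fell with DQ, and 2.33% rose and 2.24% fell with PQ. Sqstm1, whose product p62 is found with keratins 8 and 18 in Mallory-Denk bodies, read 11.53, 11.49 and 11.54 with DQ and 11.52, 11.44 and 11.48 with PQ, against 11.23, 11.15 and 11.09 in controls. It rose 1.29-fold with DQ and 1.25-fold with PQ (limma adjusted p = 0.000824 and 0.00228). Dsp, the desmoplakin gene that anchors keratins to desmosomes, read 9.49, 9.40 and 9.59 with DQ and 9.56, 9.43 and 9.48 with PQ, against 9.87, 9.87 and 9.71 in controls. It fell 1.25-fold with both (limma adjusted p = 0.0123 and 0.0141), and the calls were lost without control replicate 1 (0.0565 and 0.0696) or 2 (0.0606 and 0.0712) and, with PQ, also without PQ replicate 2 (0.0711) or 3 (0.0628). Tgm2, a keratin-crosslinking transglutaminase, fell 1.23-fold with DQ (limma adjusted p = 0.00652), and so did periplakin, Ppl, by 0.18 on the log2 scale (limma adjusted p = 0.0188), a call lost without control replicate 1 or 2 or DQ replicate 1 and after centring. With PQ, Tgm2 and Ppl differed by -0.17 and -0.10 without passing (limma adjusted p = 0.104 and 0.232). Tgm2 with PQ passed in 2 of 18 alternatives.

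Of 17 biliary and progenitor markers measured outside the 9, 2 rose and 1 fell with DQ (beside 4.13% and 2.89% of all genes), and 1 rose and 1 fell with PQ (beside 2.33% and 2.24%), so that a single call lies near the share of all genes; over the whole list, 4 rose with DQ as deposited and 5 after centring or quantile normalization, and 1 fell with PQ as deposited and 2 after quantile normalization. Cldn4, a tight junction claudin, read 8.67, 8.50 and 8.66 with DQ and 8.52, 8.54 and 8.41 with PQ, against 8.08, 8.13 and 8.07 in controls. It rose 1.43-fold with DQ and 1.32-fold with PQ (limma adjusted p = 0.000393 and 0.0025), and all 6 treated arrays lay above the controls. Lgr5, a Wnt-responsive progenitor marker, averaged 7.47 ± 0.05 with DQ and 7.30 ± 0.22 with PQ, against 7.88 ± 0.08 in controls (SD, n = 3 each). It fell by 0.41 and 0.58 on the log2 scale (limma adjusted p = 0.0263 and 0.00585). With the mean of its features it fell by 0.21 and 0.25, and the DQ call was lost without any 1 of the DQ or control arrays (limma adjusted p of 0.055 to 0.095). Cd44, the hyaluronan receptor, was 1.24-fold higher with DQ (limma adjusted p = 0.0395), a call kept in 9 of 18 alternatives and lost without any 1 control or PQ array or DQ replicate 1. With PQ its difference of 0.12 did not pass (limma adjusted p = 0.546). Of the other 18 SOX genes, 0 passed with either compound, and Sox12 stood first by size at -0.22 with DQ (limma adjusted p = 0.058); it passed without control replicate 1 or DQ replicate 2 and in 3 of 18 alternatives in all.

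Junction and mesenchymal genes were read beside Cdh1 and Snai2. Beside the same shares of all genes (4.13% and 2.89% with DQ, 2.33% and 2.24% with PQ), to which these counts lie close, of 30 epithelial junction and identity genes other than Cdh1 and Epcam, 2 rose and 2 fell with DQ (4 fell after quantile normalization) and 1 rose and 1 fell with PQ (2 fell after centring and 3 after quantile normalization). They were Cldn4 and Dsp with both compounds and, with DQ, F11r, the junctional adhesion molecule A gene (0.14 higher; limma adjusted p = 0.0303), and Tjp3, the ZO-3 gene, which fell 1.23-fold (limma adjusted p = 0.0135). The F11r call was kept in 11 of 18 alternatives and lost without any 1 control array or DQ replicate 1 or 3, and the Tjp3 call was lost without control replicate 1 or 2. With PQ, Tjp3 differed by -0.23 (limma adjusted p = 0.0536) and passed in 8 of 18 alternatives, 2 of them without DQ replicate 1 or 3. F11r differed by 0.05 with PQ (limma adjusted p = 0.629). Of 12 cadherins other than Cdh1, 0 rose and 1 fell with DQ and 0 passed with PQ. The fall was in Cdh11, a mesenchymal cadherin (-0.30; limma adjusted p = 0.0186; lost without control replicate 2 or 3).

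Of 23 mesenchymal and epithelial-mesenchymal transition (EMT) genes other than Snai2, 2 rose and 2 fell with DQ and 1 rose and 0 fell with PQ; the falls with DQ became 0 after each array was centred. Over all genes 4.13% rose and 2.89% fell with DQ and 2.33% rose and 2.24% fell with PQ, so the single call with PQ lies near the share of all genes. Itga5, the fibronectin receptor chain, read 10.23, 10.14 and 10.28 with DQ and 10.09, 10.04 and 10.11 with PQ, against 9.92, 9.72 and 9.76 in controls. It rose 1.33-fold with DQ and 1.21-fold with PQ (limma adjusted p = 0.00194 and 0.02), the PQ call being lost without control replicate 2 or 3 or any 1 PQ array (0.0546 to 0.0917). Tgfb1 was higher by 0.26 with DQ, and Tagln and Sparc lower by 0.22 and 0.16 (limma adjusted p = 0.0475, 0.0461 and 0.046), calls kept in 8, 4 and 8 of 18 alternatives. Tgfb1 was lost without any 1 DQ or control array or PQ replicate 3, Tagln without any 1 PQ or control array or DQ replicate 2 or 3, and Sparc without any 1 DQ array, PQ replicate 1 or 2 or control replicate 1 or 2. With PQ, Tgfb1, Tagln and Sparc differed by 0.11, -0.15 and -0.13 without passing (limma adjusted p = 0.563, 0.232 and 0.156). Outside the naming rule, and chosen for their kinship with Snai2 or as mesenchymal standards, Snai1 changed by 0.04 and 0.01, Snai3 by -0.14 and -0.11, Zeb1 by 0.17 and 0.08 and the vimentin gene Vim by 0.08 and 0.04 with DQ and PQ; none passed (lowest limma adjusted p = 0.0573, for Zeb1 with DQ, which passed in 5 of 18 alternatives, one of them without control replicate 3). Snai1 with PQ changed sign in 3 of 18 alternatives, and Vim passed with PQ (0.26) when the mean of its features was taken.

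**Figure D4:**
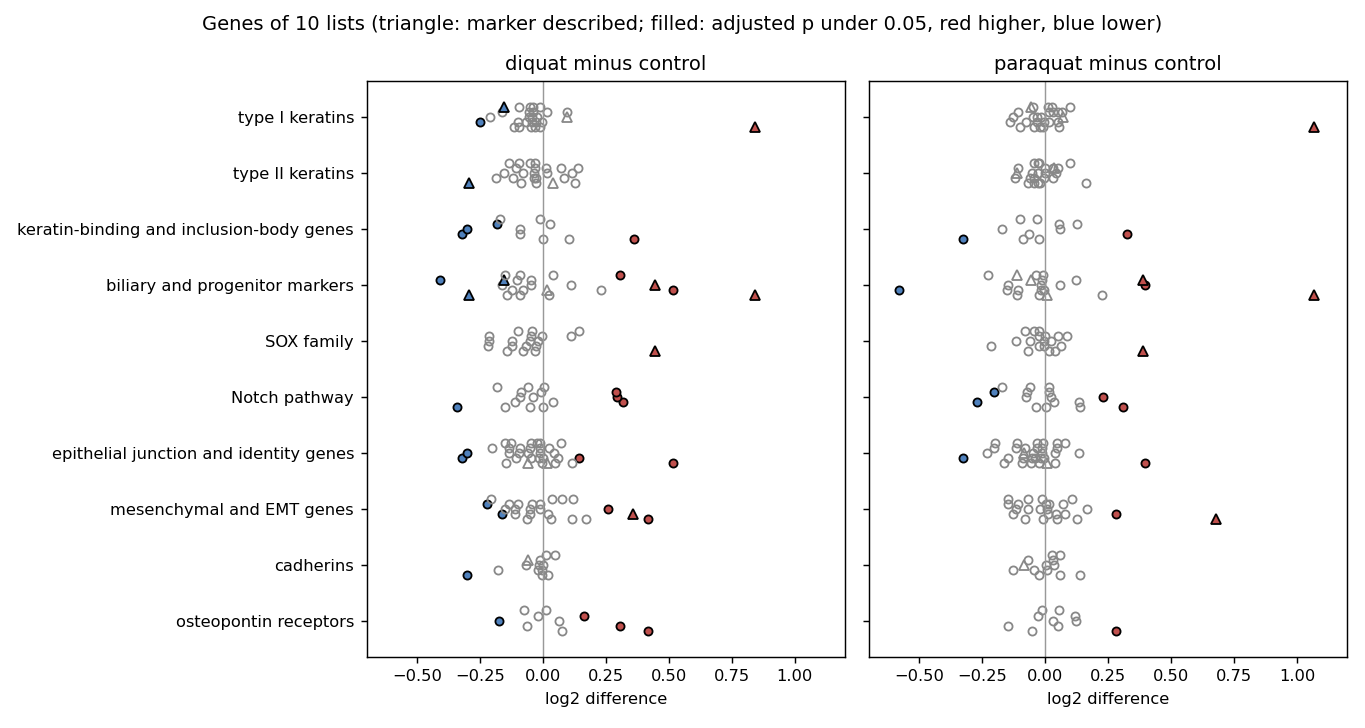
Log2 differences (horizontal axis) of the measured genes of 10 lists, with DQ and with PQ, in rows by list; triangles are the 9 markers, and filled symbols passed an adjusted p under 0.05 in limma, red higher and blue lower. Krt23 was the keratin farthest to the right in both panels, at 0.84 and 1.07, and other keratins lay between -0.29 and 0.16.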

How the data were processed

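Groups and replicate numbers came from the sample titles. The deposited table holds log2 values of 34472 features on 9 Affymetrix Mouse Gene 2.1 ST arrays, which the authors made with Affymetrix Expression Console 1.1 and RMA, per the submitters' processing notes; its settings and the annotation build are not stated in those sources. Features were named from the platform annotation (23521 with 1 symbol, 1814 with several, 9137 with none); 23328 of those with 1 symbol matched RefSeq genes of GRCm38.p6. The brightest feature per gene left 22180 genes. They were fitted as deposited with limma 3.58.1 under R 4.3.3 (lmFit, then eBayes), with group means and, per gene, a residual variance over all 9 arrays; p-values were adjusted by Benjamini-Hochberg and called under 0.05. Scanner files were not used here, so dim genes and background cannot be separated; precision is limited by having 3 arrays per group.

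The markers and the 10 lists were chosen with earlier results of these data known. Named list genes are up to 4 per list that passed with either compound, by size, or the first by size where none did; 3 neighbours were named for Krt23, Sox9 and Krt7. Of 18 alternatives, 9 leave out 1 array each; the others are a replicate block, centring, quantile normalization, a filter on the dimmest 25% of genes, the mean of features, all features, a trend with a robust prior, array weights and the 2 groups alone. The fit was tested on simulated data.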

Additional observations from a re-analysis of the deposited data

Results flagged for a closer look

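The Krt18 feature left out of the comparisons was higher with PQ than in controls by 0.503 on the log2 scale (limma over all features, adjusted p = 0.0393). It is listed here because it lies outside the values compared above and passed where the Krt18 feature used did not. Its 3 PQ arrays and its 3 DQ arrays all lay above its 3 control arrays. Whether this feature reads the Krt18 transcript was not tested. No group of 3 arrays was tested for an outlying sample.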

How the results depend on the processing

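Krt23, Sox9 and Snai2 with both compounds, and Krt7 with DQ, kept their direction and passed in all 18 alternatives. Their highest adjusted p was 0.000372, 0.00306, 0.0146 and 0.0178 with DQ and 0.000158, 0.00672 and 0.00149 with PQ. Of the 9 markers, 4 to 5 passed with DQ, 3 with PQ and 0 to 1 between the compounds when 1 array was left out. Over all genes those fits called 802 to 1908, 574 to 1197 and 0 to 3. The count was 959 with DQ in the 2 groups alone and 1623 with PQ under array weights; between the compounds it was 1 after centring, 4 after quantile normalization and 4 with the filter on dim genes. Signs turned only in small differences that did not pass: Epcam with DQ (-0.014 after quantile normalization, -0.018 with array weights, -0.015 to 0.06 leaving out 1 array); between the compounds Krt8 (0.00037 after quantile normalization, -0.032 to 0.0083 leaving out 1 array), Epcam (0.022 and 0.024 in those settings, -0.053 to 0.022), Krt18 (0.082 with the mean of features) and Cdh1 (0.011 with array weights, -0.065 to 0.017); and with PQ Krt9 (-0.048 to 0.027), Cdh11 (-0.09 to 0.005), Snai1 (-0.073 to 0.12) and Evx2 (-0.088 to 0.0017). The causes were not tested.

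Whether the replicate numbers pair the samples was not settled. Deviations of same-numbered arrays correlated at 0.04, 0.08 and -0.11 between DQ and control, and at 0.16, 0.13 and 0.09 between PQ and control. Between PQ and DQ they correlated at -0.19, 0.20 and -0.12. In PQ and control every array correlated best with its own number. The descriptions give number 1 to replicates 2 and 3 of DQ and PQ, so these numbers are uncertain. With the replicate block, 1416, 930 and 0 genes and 4, 3 and 0 of the 9 markers passed with DQ, with PQ and between the compounds; Krt19 with DQ did not (adjusted p = 0.0562). Among the other genes named, the block lost F11r, Itgb5 and Tagln with DQ and Rbpj, Notch2 and Slc26a2 with PQ, and it added Tjp3 with PQ.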

Other observations

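Of 16 Notch pathway genes, a pathway of bile duct formation, 3 rose and 1 fell with DQ and 2 rose and 2 fell with PQ (1 and 1 after centring). Over all genes 4.13% rose and 2.89% fell with DQ, and 2.33% rose and 2.24% fell with PQ. The ligand gene Jag1 averaged 10.59 ± 0.10 with DQ and 10.60 ± 0.06 with PQ, against 10.29 ± 0.08 in controls (SD, n = 3 each; limma adjusted p = 0.0172 and 0.0171). Rbpj, the DNA-binding partner of Notch, was higher by 0.32 and 0.23 (limma adjusted p = 0.00379 and 0.0237). Lfng, a glycosyltransferase that modifies Notch receptors, fell by 0.34 and 0.27 on the log2 scale (limma adjusted p = 0.00289 and 0.0128). The receptor gene Notch2, named after its values were seen, was lower by 0.20 with PQ (limma adjusted p = 0.0466), a call kept in 6 of 18 alternatives and lost after centring (0.0711) and without any 1 array other than control replicate 3 (0.0546 to 0.159). Nrarp, a feedback inhibitor, was higher by 0.29 with DQ (limma adjusted p = 0.00634), and with PQ the difference of 0.14 did not pass (limma adjusted p = 0.193). Outside the naming rule, Hes1, Hey1, Hey2 and Heyl differed by 0.04, -0.18, 0.003 and -0.11 with DQ. With PQ they differed by -0.08, -0.17, -0.06 and -0.04, and none passed with either compound. The calls of Lfng, Rbpj and Nrarp with DQ were kept in 18 of 18 alternatives. Those with PQ were kept in 15 for Jag1, 15 for Lfng and 9 for Rbpj, and Rbpj with PQ was 0.14 with the mean of its features and was lost without any 1 control or PQ array, Jag1 without control replicate 3 or PQ replicate 2 or 3, and Lfng without control replicate 1 or PQ replicate 2 or 3. Jag1 with DQ was lost without control replicate 3 or DQ replicate 1.

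Of 10 receptor genes for osteopontin, whose own gene Spp1 was not analysed here, 3 rose and 1 fell with DQ (beside 4.13% and 2.89% of all genes) and 1 rose with PQ (beside 2.33%); after centring 0 fell with DQ, and after quantile normalization 2 rose with DQ and 1 fell with PQ. Itga5 and Cd44 are given above. Itgav was higher by 0.16 and Itgb5 lower by 0.17 with DQ on the log2 scale (limma adjusted p = 0.0473 and 0.0373), calls kept in 7 and 8 of 18 alternatives. Itgav was lost without DQ replicate 1 or 3, PQ replicate 2 or 3 or any 1 control array, and with the mean of its features it was higher by 0.083. Itgb5 was lost without DQ replicate 1 or 2, PQ replicate 1 or 3 or control replicate 1 or 2. With PQ, Itgav and Itgb5 differed by 0.12 and -0.15 without passing (limma adjusted p = 0.202 and 0.0872), and Itgb5 passed in 2 of 18 alternatives.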
